A study of Mus musculus with 6 samples.

Results

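Elastic fibres give the lung its recoil. Their core is cross-linked elastin, laid down on a sheath of microfibrils made of fibrillins and the proteins that bind them, and fibulins bring elastin, the microfibrils and the crosslinking enzymes together. In the lung the fibres are made by fibroblasts, myofibroblasts and vascular smooth muscle, mostly during alveolar growth and again after injury. The genes described here are the 10 rows of the count table whose symbol is *Eln* (elastin), *Fbn1* or *Fbn2* (fibrillins), *Fbln1*, *Fbln2* or *Fbln5* (fibulins), *Mfap2*, *Mfap4* or *Mfap5* (microfibril-associated proteins) or *Emilin1* (a glycoprotein between elastin and microfibrils), of 26100 rows in all. They were named by function, with earlier results of these data already known.

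RNA was sequenced from the lungs of 6 mice given bleomycin into the trachea, a drug whose injury is followed by scarring, and taken at day 14. Wild-type mice (WT) gave 3 of the libraries, and mice with a knockout of *Clec7a* (KO) gave the other 3. *Clec7a* encodes dectin-1, a receptor for beta-glucan on myeloid cells. All 6 animals had received bleomycin, uninjured lungs were not analysed here, and the allele, strain, sex and age are not stated in the labels.

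The libraries held 31052936 to 34451956 counts. Levels of 1 gene between libraries are given as CPM, counts scaled to a common library total, and levels between genes as FPKM, which also corrects for gene length. In bulk tissue, fewer cells of a type and less RNA per cell cannot be told apart. The surfactant gene *Sftpc*, which marks alveolar epithelium, ranged over the libraries from 938 CPM to 13701 CPM. *Clec7a* itself was at 60.6, 84.0 and 196.5 CPM in WT and 3.60, 6.85 and 2.84 CPM in KO. Both first replicates lay away from the other 4 libraries: Spearman correlations across genes were 0.959 or more between libraries that were not first replicates, and 0.947 or less for any pair with a first replicate. Mitochondrial transcripts took 7.34% of the counts in KO replicate 1 and 2.69% to 3.87% in the other 5.

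The elastic fibre genes did not move as a block between the genotypes. Elastin, both fibrillins, *Emilin1* and *Fbln2* had lower estimates in KO, and *Mfap4*, *Fbln1*, *Fbln5*, *Mfap5* and, by a difference near 0, *Mfap2* had higher ones. *Fbln2* was 5.87-fold lower in KO by group means and *Mfap4* 2.27-fold higher, and these were the 2 genes whose groups did not overlap. None of the 10 passed edgeR's quasi-likelihood test at a Benjamini-Hochberg adjusted p under 0.05, a call made for 0% of the 16633 genes tested. The members' median log2 fold change, given always as KO minus WT, was -0.16, against -0.01 for all genes tested. At an unadjusted p under 0.05 edgeR had 1 member higher (*Mfap4*) and 1 lower (*Fbln2*), against 5.95% and 5.89% of all genes tested. Groups were apart for 1 member upward and 1 downward, against 9.81% and 11.3% of all genes. DESeq2 called 1 member, *Fbln2*, against 1.73% of genes called lower and 1.91% called higher by that tool.

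**Figure D1:**
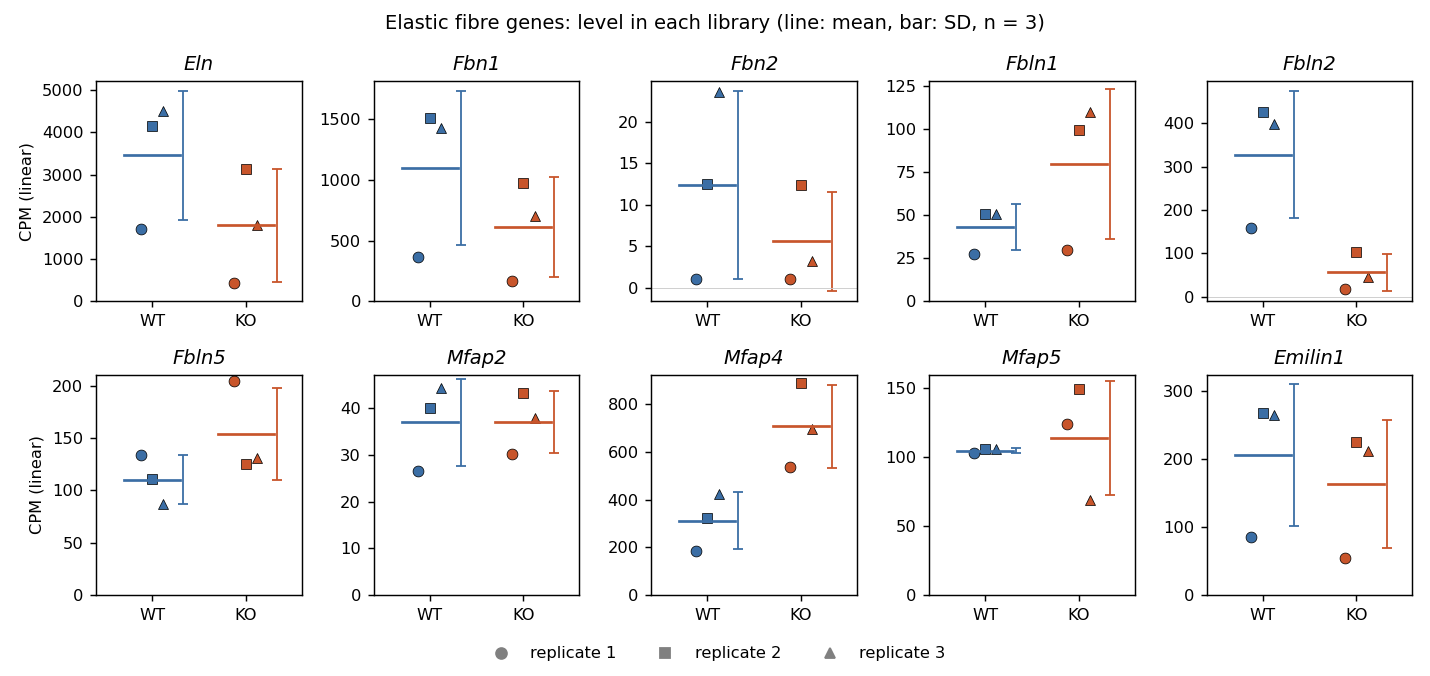
CPM of each of the 10 genes in the 3 WT and 3 KO libraries on linear axes, with symbols for the replicates, a line at each mean and a bar of 1 SD beside it. *Fbln2* is lower in all 3 KO libraries than in any WT library and *Mfap4* is higher in all 3, while the circles of the first replicates are the lowest of their group in most panels.

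Elastin is the extensible core of the fibre. *Eln* (ENSMUSG00000029675, GRCm38 chromosome 5, 134702593 to 134747323, minus strand) was at 1709.5, 4155 and 4515 CPM in WT replicates 1 to 3 and at 441, 3137 and 1809 CPM in KO replicates 1 to 3. KO replicate 1 was far below every other library, and KO replicates 2 and 3 lay between WT replicate 1 and the other WT libraries, so the groups overlapped. The WT mean was 3460 ± 1527 CPM and the KO mean 1796 ± 1348 CPM (SD, n = 3 each). The log2 fold change was -0.95 ± 0.73 (SE), with a 95% interval from -2.70 to 0.80 and an edgeR adjusted p of 0.657. Leaving out KO replicate 1 gave -0.48 and leaving out KO replicate 2 gave -1.62, so single libraries moved the estimate by more than 1.5 times. *Eln* took 0.449% of all counts in WT replicate 3 and 0.0434% in KO replicate 1.

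Fibrillins are long, cysteine-rich glycoproteins that polymerise into microfibrils, fibrillin-1 in adult tissue and fibrillin-2 mainly in embryonic and regenerating tissue. *Fbn1* (ENSMUSG00000027204, chromosome 2, 125300594 to 125507993, minus strand) was at 368, 1504 and 1425 CPM in WT and 166, 969.6 and 705 CPM in KO. Both first replicates were lowest in their group, and the other 2 KO libraries lay below the other 2 WT libraries. Its log2 fold change was -0.84 ± 0.76 (edgeR adjusted p 0.712), and -0.39 without KO replicate 1. *Fbn2* (ENSMUSG00000024598, chromosome 18, 58008623 to 58210487, minus strand) was the member of lowest level, at 1.01, 12.5 and 23.7 CPM in WT and 1.11, 12.4 and 3.24 CPM in KO, from 33 to 811 counts. The WT libraries alone spanned 23.4-fold, and the difference of -1.15 ± 1.19 was smaller than its error (edgeR adjusted p 0.756). Leaving out WT replicate 3 brought it to -0.28, and leaving out KO replicate 2 to -2.51. The log2 ratio of *Fbn2* to *Fbn1* within a library was -7.08 ± 1.27 in WT and -7.06 ± 0.73 in KO (SD, n = 3 each, exact permutation p = 1.0).

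The fibulins are calcium-binding glycoproteins that bridge elastin, fibrillin and basement membranes. *Fbln2* had a lower estimate in KO, and *Fbln1* and *Fbln5* had higher ones that did not pass edgeR or DESeq2 over the 6 libraries. *Fbln2* (ENSMUSG00000064080, chromosome 6, 91212455 to 91272540, plus strand), a fibulin of vessel walls and remodelling tissue, was at 159.6, 426 and 398 CPM in WT and 18.2, 103 and 46.3 CPM in KO. The highest KO library lay below the lowest WT library, which was WT replicate 1. Means were 328 ± 146 and 55.9 ± 43.4 CPM (SD, n = 3 each). The log2 fold change of -2.55 ± 0.70, with a 95% interval from -4.22 to -0.88, had an edgeR adjusted p of 0.269 and a DESeq2 adjusted p of 0.00408. *Fbln2* lies 38.2 Mb from *Clec7a* on the same chromosome.

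*Fbln1* (ENSMUSG00000006369, chromosome 15, 85205949 to 85286535, plus strand), which binds fibronectin and elastin, was at 27.5, 50.7 and 50.9 CPM in WT and 29.6, 99.2 and 109 CPM in KO. KO replicates 2 and 3 stood above all WT libraries, and KO replicate 1 lay among them. The log2 fold change was 0.88 ± 0.51, with an edgeR adjusted p of 0.549 over the 6 libraries. Without both first replicates it was 1.05 ± 0.09 with an edgeR adjusted p of 0.0434. That fit, with 2 libraries in each group, called 0.108% of the genes higher in KO. *Fbln5* (ENSMUSG00000021186, chromosome 12, 101746565 to 101819055, minus strand) tethers elastin to cells and is needed for elastic fibre assembly in mice. It was at 133, 111 and 86.9 CPM in WT and 204, 126 and 131 CPM in KO. KO replicates 2 and 3 lay just below WT replicate 1, and the log2 fold change was 0.48 ± 0.27 (edgeR adjusted p 0.539).

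Set against *Fbln2* in the same library, both other fibulins stood higher in every KO library. The log2 ratio of *Fbln1* to *Fbln2* was -2.54, -3.07 and -2.97 in WT and 0.70, -0.06 and 1.24 in KO. It differed by 3.49 between the group means. The ratio of *Fbln5* to *Fbln2* was -0.26, -1.94 and -2.19 in WT and from 0.28 to 3.49 in KO, a difference of 3.22. Each had an exact 2-sided permutation p of 0.1, the smallest that 3 libraries against 3 allow, and 0.3 after Benjamini-Hochberg adjustment over the 6 ratios examined. Both ratios share *Fbln2*, whose groups were already apart by themselves (log2 fold change -2.55). The ratios are therefore independent neither of that difference nor of each other.

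The starts of fibulin genes are shown here because the ratios above compare these genes. RefSeq windows covering the 250 bases before a transcription start (GRCm38.p6) were found for 6 of the 10 members. They were searched on both strands for 8 motifs. TATAAA was read as a TATA box and CCAAT as a CCAAT box. The GC box was read as GGGCGG and the AP-1 motif as TGANTCA. A SMAD motif was CAGACA, a TEAD motif was GGAATG, and an E-box was CANNTG. The last was the CArG box. The windows of *Fbln1* (chr15:85205699-85205948, plus strand) and *Fbln5* (chr12:101819120-101819369, minus strand) below were the 2, of 9 windows, that met no annotated exon. Both genes also have a second window further into the locus that does. They run 5′ to 3′, and capitals mark matches to any of these motifs except the E-box.
Fbln1: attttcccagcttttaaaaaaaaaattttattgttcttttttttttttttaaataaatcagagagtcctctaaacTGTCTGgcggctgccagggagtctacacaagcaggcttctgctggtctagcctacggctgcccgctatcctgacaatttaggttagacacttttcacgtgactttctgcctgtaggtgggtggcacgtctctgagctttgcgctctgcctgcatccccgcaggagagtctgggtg
Fbln5: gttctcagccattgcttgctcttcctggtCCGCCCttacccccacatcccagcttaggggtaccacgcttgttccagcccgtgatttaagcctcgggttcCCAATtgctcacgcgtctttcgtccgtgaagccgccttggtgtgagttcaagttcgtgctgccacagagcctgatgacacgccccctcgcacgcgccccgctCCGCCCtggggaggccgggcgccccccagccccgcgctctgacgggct
The *Fbln1* window held a SMAD motif on the reverse strand, 175 to 170 bases before the start. The *Fbln5* window held GC boxes on the reverse strand at 221 to 216 and 48 to 43 bases and a CCAAT box at 150 to 146 bases, which overlaps an E-box. *Fbln1* also held 1 E-box. The *Fbln2* window (91212514 to 91212763), which overlaps an annotated exon and is not printed, held a GC box and an E-box. Of all 32851 windows, 17.1% held the SMAD motif, 32.7% the GC box, 33.8% the CCAAT box and 66.2% the E-box. The TATA box (12.4% of windows), the AP-1 motif (6.75%), the TEAD motif (12.6%) and the CArG box (1.47%) were not matched in these 3 windows. A match is a description of letters in the window only.

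Microfibril-associated proteins sit on the fibrillin scaffold. *Mfap4* (ENSMUSG00000042436, chromosome 11, 61485431 to 61488900, plus strand), a fibrinogen-domain protein that binds tropoelastin and fibrillin-1, was at 186, 323 and 424 CPM in WT and 538, 888 and 695 CPM in KO. The lowest KO library, KO replicate 1, lay above the highest WT library. Means were 311 ± 120 and 707 ± 175 CPM (SD, n = 3 each). The log2 fold change was 1.19 ± 0.37, with a 95% interval from 0.31 to 2.06, an edgeR adjusted p of 0.308 and a DESeq2 adjusted p of 0.0513. *Mfap4* overlaps the last 89 bases of the *Mapk7* locus on the opposite strand. Since the strand setting of the counting is not given, reads there cannot be told apart, but *Mapk7* held only 565 to 1043 counts against 6045 to 29831 for *Mfap4*.

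*Mfap2* and *Mfap5* encode the small microfibril proteins MAGP-1 and MAGP-2, which bind fibrillin and growth factors. *Mfap2* (ENSMUSG00000060572, chromosome 4, 141010418 to 141015984, plus strand) was at 26.6, 39.9 and 44.2 CPM in WT and 30.1, 43.1 and 37.8 CPM in KO. The groups overlapped fully and the 95% interval of the log2 difference ran from -0.60 to 0.61, so a change of up to about those sizes is not excluded by these libraries. *Mfap5* (ENSMUSG00000030116, chromosome 6, 122505845 to 122529290, plus strand, 7.0 Mb from *Clec7a*) was at 103, 106 and 106 CPM in WT and 124, 149.8 and 69.0 CPM in KO. The WT libraries were nearly equal and the KO libraries lay on both sides of them, with a log2 difference of 0.12 and an interval from -0.57 to 0.82. The log2 ratio of *Mfap5* to *Mfap2* was 1.54 ± 0.37 in WT and 1.57 ± 0.62 in KO (SD, n = 3 each, exact permutation p = 1.0).

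*Emilin1* (ENSMUSG00000029163, chromosome 5, 30913402 to 30921277, plus strand), whose product lies at the surface between elastin and microfibrils and restrains growth factor processing, was at 84.9, 268 and 265 CPM in WT and 54.8, 225 and 212 CPM in KO. Its groups overlapped, with each first replicate far below the other 2 libraries of its genotype. The log2 fold change of -0.33 ± 0.63 was smaller than its error (edgeR adjusted p 0.881). All 10 members are annotated as protein coding. At their starts *Eln*, *Fbn1* and *Fbn2* overlap genes of the opposite strand (*Gm30003* by 282 bases, *Gm9913* by 2793 and *Gm26507* by 236), whose reads cannot be told apart without strand. *Gm9913* held 2 to 14 counts, and 6 members overlap no annotated gene.

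**Figure D2:**
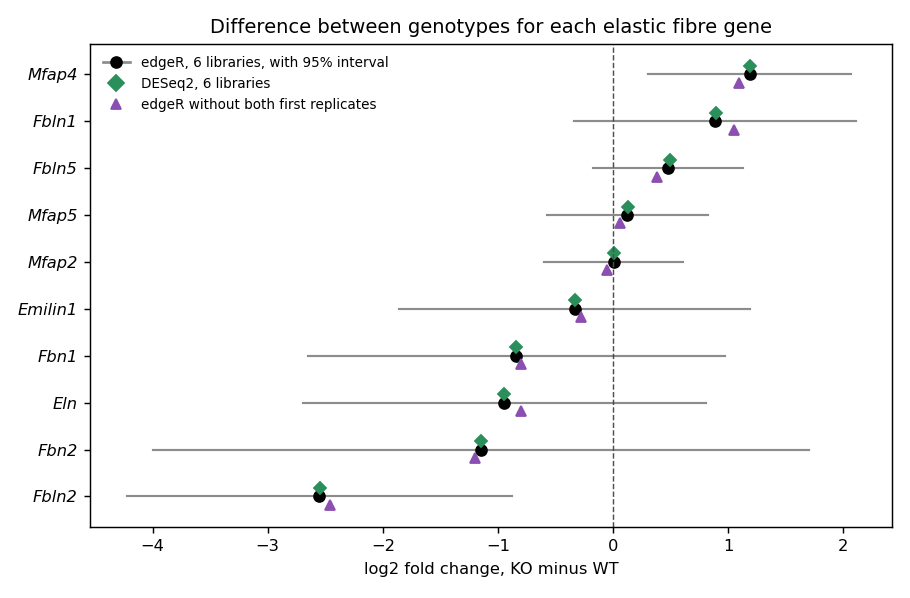
Log2 fold change (KO minus WT) of the 10 genes from edgeR with its 95% interval (black circles), from DESeq2 (green diamonds) and from edgeR without both first replicates (purple triangles). The intervals of *Fbln2* (-4.22 to -0.88) and *Mfap4* (0.31 to 2.06) lie on one side of 0 before any adjustment, and those of the other 8 genes cross it.

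The libraries themselves divided the genes. WT replicate 1 was the lowest WT library for 9 of the 10 members and KO replicate 1 the lowest KO library for 8. *Fbln5* was an exception in both genotypes, with its highest level in the first replicate. On log2 CPM centred on the 6 libraries, KO replicate 1 was at -2.23 for *Eln*, -2.01 for *Fbn1*, -2.10 for *Fbn2*, -2.66 for *Fbln2* and -1.53 for *Emilin1*, but at 0.25 for *Mfap4* and 0.68 for *Fbln5*. WT replicates 2 and 3 were at 1.00 and 1.12 for *Eln* and at -0.48 and -0.09 for *Mfap4*. The pair of members with the most similar profiles was *Eln* and *Fbn1*, with a root mean square difference of 0.29 log2 units over the 6 libraries, followed by *Fbn1* and *Emilin1* at 0.33. The log2 ratio of *Eln* to *Fbn1* was 1.78 ± 0.39 in WT and 1.49 ± 0.18 in KO (SD, n = 3 each, exact permutation p = 0.3).

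**Figure D3:**
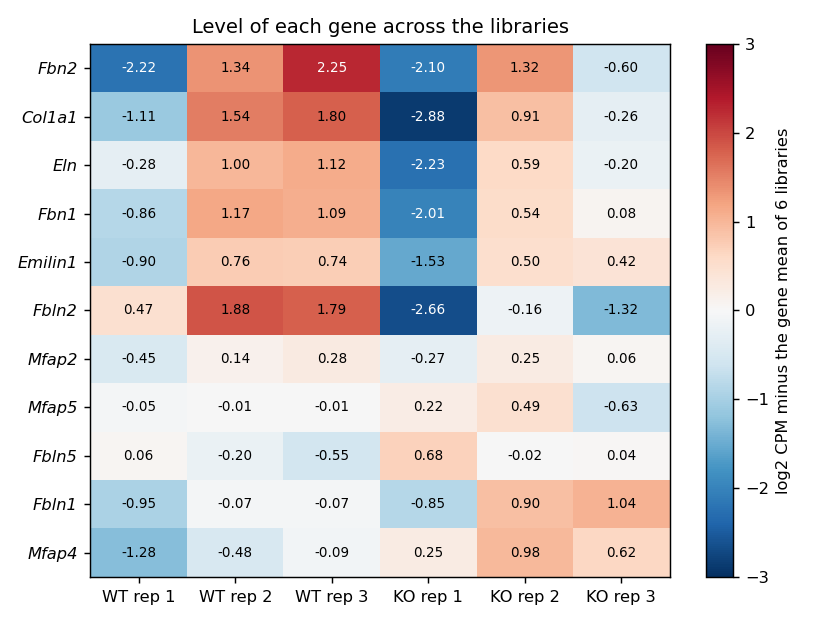
Log2 CPM of each elastic fibre gene and of *Col1a1* in the 6 libraries, minus that gene's mean over the libraries (colour and printed value). *Eln*, *Fbn1*, *Fbn2* and *Emilin1* share low values in both first replicates with *Col1a1*, whereas *Mfap4* is below its mean in all 3 WT libraries and above it in all 3 KO libraries.

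Among genes outside the 10, the most similar to *Eln* over the 6 libraries were *Bmper*, a BMP-binding secreted protein gene (root mean square difference 0.19 log2 units), the fibrillar collagen gene *Col5a2* (0.20) and the Wnt receptor gene *Ror2* (0.21). They were found among 11912 genes of at least 5 CPM. No gene was among the 3 most similar to more than 1 member. The ratio of *Eln* to *Col1a1*, the main collagen of scar, was within the spread between libraries: 0.00 ± 0.83 in WT and 0.26 ± 0.48 in KO on the log2 scale (SD, n = 3 each, exact permutation p = 0.6).

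Per unit of length, elastin was the most abundant of the 10 transcripts in both genotypes, at 855 ± 399 FPKM in WT and 462 ± 351 FPKM in KO (SD, n = 3 each). In WT its lowest library lay above the highest library of *Mfap4*, the second gene in order. In KO the ranges of the 2 genes overlapped, with *Mfap4* at 418 ± 111 FPKM. In WT the order went on with *Fbn1*, *Mfap5*, *Fbln2*, *Emilin1* and *Mfap2*, each overlapping its neighbour. *Fbln5*, *Fbln1* and *Fbn2* came last there, and *Fbn2* was under the range of the rest at 1.14 ± 1.05 FPKM. *Fbln2* stood at place 5 in WT, with 66.8 ± 31.2 FPKM, and at place 9 in KO, with 11.8 ± 9.3 FPKM.

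As a share of the summed FPKM of the 10 genes in a library, *Eln* took 57.4% to 62.8% in WT and 18.2% to 47.4% in KO. *Mfap4* took 11.5% to 14.5% in WT and 31.01% to 51.1% in KO. *Fbln2* took 4.48% to 5.30% in WT and 0.612% to 1.28% in KO. *Fbln1* took 0.913% to 1.26% in WT and 1.45% to 3.24% in KO. The groups were apart for these 4 genes and overlapped for the other 6. The shares add up to the whole, so a rise of 1 gene lowers the others. This view was chosen after the values were seen and is a description with no test. From the counts, *Eln* had 9.21, 12.9 and 10.7 times the CPM of *Mfap4* in WT replicates 1 to 3, and 0.821, 3.53 and 2.61 times in KO replicates 1 to 3.

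**Figure D4:**
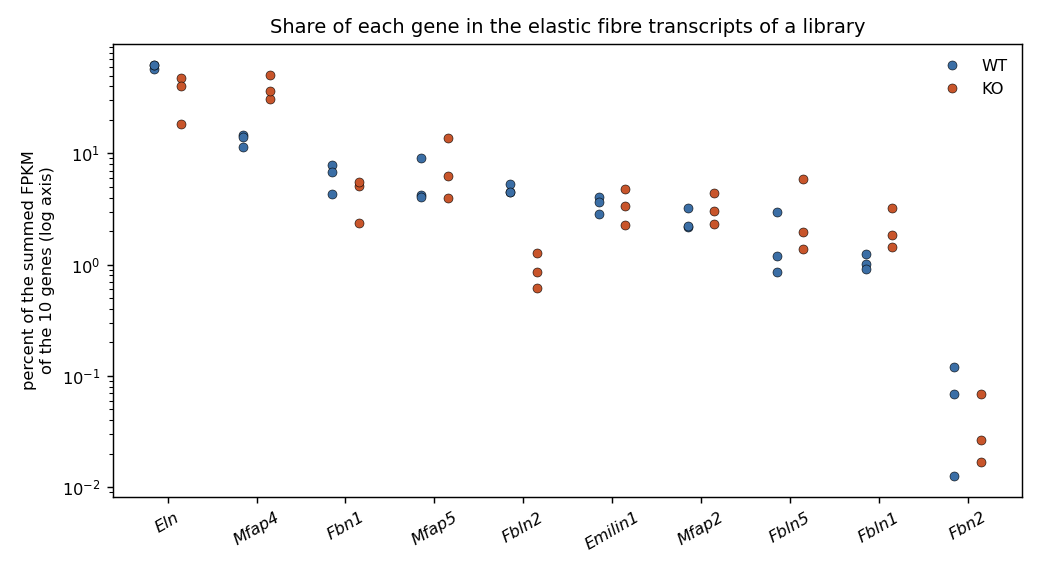
Percent of the summed FPKM of the 10 genes contributed by each gene (log axis), with 1 point per library, WT in blue and KO in orange. The 3 KO points of *Eln* (18.2% to 47.4%) and *Fbln2* lie below all WT points, and those of *Mfap4* (31.01% to 51.1%) and *Fbln1* (1.45% to 3.24%) lie above them.

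The enzymes and partners of the fibre were read from lists. Lysyl oxidases oxidise lysines of elastin and collagen so that the chains crosslink. All 5 tested members had lower estimates in KO, with a median log2 fold change of -1.43. Of all genes tested, 8485 of 16633 had a lower estimate. None of the 5 passed edgeR over all genes (lowest adjusted p 0.232). In the lower direction 3 had an unadjusted p under 0.05, against 5.89% of all genes, and DESeq2 called 3, against 1.73%. *Lox*, the principal family member, was at 857, 1143 and 902 CPM in WT and 175, 532 and 369 CPM in KO (log2 fold change -1.43 ± 0.42). All KO libraries lay below all WT libraries. *Loxl4* was at 22.1 ± 3.9 and 6.91 ± 2.78 CPM (-1.68 ± 0.36), also without overlap. *Loxl2* was at 402 ± 251 and 93.3 ± 61.5 CPM (-2.11 ± 0.74), with KO replicate 2 above WT replicate 1. *Loxl1*, which acts with fibulin-5 on elastin, had -0.65 ± 0.45, and its groups overlapped. The summed level of the 5 enzymes was 1221 to 2015 CPM in WT and 303 to 982 CPM in KO.

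Other elastic fibre and microfibril genes had no common direction. Of the 28 tested, 16 had higher and 12 lower estimates in KO, with a median of 0.03. At an unadjusted p under 0.05 edgeR had 2 of them in each direction, against 5.95% of all genes higher and 5.89% lower. DESeq2 called 1 of the 28, against 1.91% of all genes called higher. It was *Efemp1* (fibulin-3, a relative of the 3 fibulins above), with means of 35.2 ± 13.9 in WT against 89.8 ± 29.4 CPM in KO (SD, n = 3 each, log2 fold change 1.35 ± 0.35, DESeq2 adjusted p 0.0245, edgeR adjusted p 0.268). *Emilin2*, a relative of *Emilin1*, was at 119 ± 43 and 50.2 ± 18.5 CPM (-1.25 ± 0.39, edgeR adjusted p 0.312). Neither gene's groups overlapped. They were the only 2 of the list apart, 1 upward and 1 downward, against 9.81% and 11.3% of all genes. The proteoglycan gene *Bgn*, the most abundant of the list, had -0.51 ± 0.51. *Ltbp2*, which binds fibrillin, had 0.03 ± 0.99, with an estimate that turned negative in several alternative fits.

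Proteases that cut elastin and their inhibitors were mixed. Of 12 listed proteases 9 were tested, 3 with higher and 6 with lower estimates (median -0.91), and *Mmp7*, *Elane* and *Ctsg* had at most 17 counts in any library. Groups were apart for 1 protease upward and 3 downward, against 9.81% and 11.3% of all genes. Of the 3 downward, *Prtn3* was at only 0.51 to 2.04 CPM over the libraries and *Cela1* at 0.60 to 4.51 CPM. DESeq2 called 1 higher and 1 lower, against 1.91% and 1.73%. *Mmp12*, the macrophage elastase, was at 11.7, 26.9 and 77.3 CPM in WT and 146, 465 and 93.3 CPM in KO. Every KO library lay above every WT library, by 6.08-fold in the means (2.60 ± 0.88, edgeR adjusted p 0.344, DESeq2 adjusted p 0.0213). The difference was 1.63 without KO replicate 2 and up to 3.60 without another library. The lysosomal protease gene *Ctsl* was at 650.4 ± 109.2 and 309 ± 67 CPM (-1.07 ± 0.26, edgeR adjusted p 0.240, DESeq2 adjusted p 0.0102), and *Ctss* had 0.01 ± 0.39. Of 9 inhibitors 3 had higher and 6 lower estimates (median -0.21), and DESeq2 called 0. In the lower direction 3 had an edgeR unadjusted p under 0.05, against 5.89% of all genes. Groups were apart downward for 3, *Timp1* and *Timp4* among them, against 11.3% of all genes. The abundant metalloproteinase inhibitor genes *Timp3* (-0.06 ± 0.27) and *Timp2* (-0.21 ± 0.30) differed by less than their error. *Timp1* was at 331, 142 and 128 CPM in WT and 51.6, 94.2 and 90.3 CPM in KO, and *Timp4* had -1.26 ± 0.46.

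Integrins that bind fibrillin, fibulins and latent growth factor complexes gave 2 higher and 6 lower estimates of 8 (median -0.36). In the lower direction 3 had an edgeR unadjusted p under 0.05, against 5.89% of all genes. Groups were apart downward for 2, against 11.3%, and DESeq2 called 1 lower, against 1.73%. *Itgb3* was at 71.5 ± 15.7 and 37.6 ± 1.8 CPM (-0.93 ± 0.21, edgeR adjusted p 0.234, DESeq2 adjusted p 0.0222). *Itgav*, its partner chain, was at 186 ± 14 and 124 ± 15 CPM (-0.58 ± 0.18, edgeR adjusted p 0.2999). Both were lower in all KO libraries than in any WT library. The most abundant, *Itgb1* (-0.33 ± 0.33) and *Itgb5* (-0.02 ± 0.41), differed by about their error or less. The 2 with higher estimates were *Itgb6* (1.04 ± 0.63) and *Itga8* (0.76 ± 0.59), and their groups overlapped.

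The fibrillar collagens are the nearest comparison among matrix genes. All 7 listed genes had lower estimates (median -1.22), against 8485 of all 16633 genes tested. Of the 7, 0 had an edgeR unadjusted p under 0.05, 0 were called by edgeR after adjustment and 0 by DESeq2. Groups overlapped for every one. *Col2a1*, a fibrillar collagen gene kept in the cartilage list, had a higher estimate (1.13 ± 1.02) at a mean of 0.37 CPM. *Col1a1* had -1.27 ± 1.04, *Col3a1* -0.66 ± 0.66, *Col5a2* -1.22 ± 0.65 and *Col5a3* -2.79 ± 1.16. The summed level of the 7 was 4811 CPM in WT replicate 1 and 2066 CPM in KO replicate 1, against 7176 to 22462 CPM in the other libraries.

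**Figure D5:**
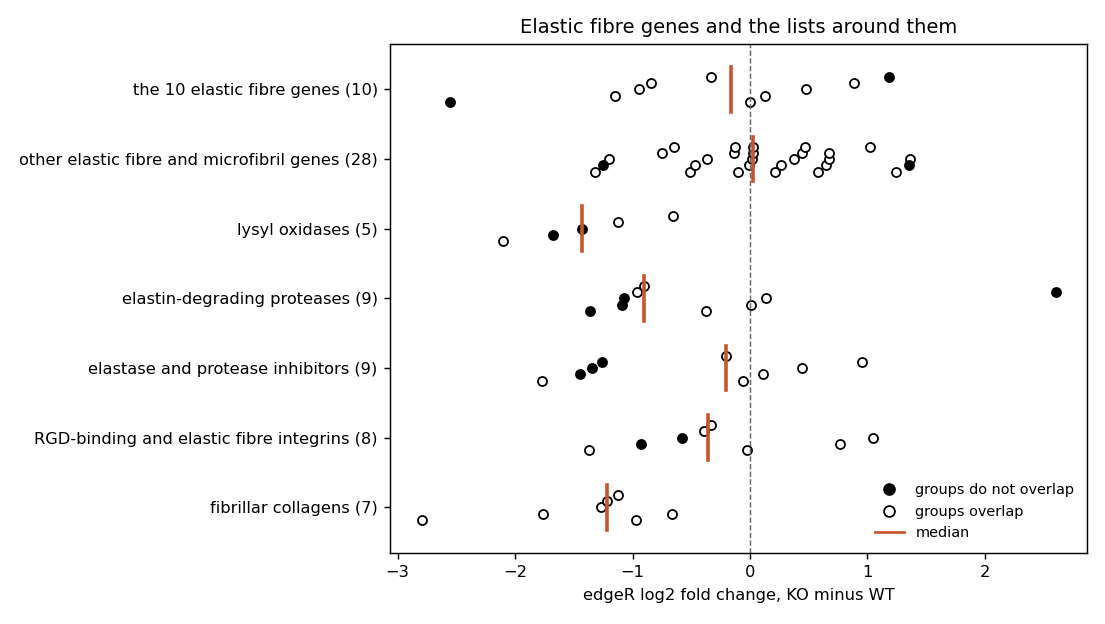
edgeR log2 fold changes (KO minus WT) of single genes in the 10 elastic fibre genes and 6 other lists, with filled circles where the 3 KO and 3 WT libraries do not overlap and a bar at each median. All 5 lysyl oxidases and all 7 listed fibrillar collagens lie left of 0, and the elastic fibre genes spread to both sides around a median of -0.16.

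Marker lists of the cells that make elastic fibres, or could carry such RNA, were read in the same libraries. Every marker was counted in every library, except in the cartilage list. The alveolar fibroblast list was at 2056 to 3057 CPM in WT and 3400.2 to 4844 CPM in KO, summed over 11 genes. Of these 10 had higher estimates (median 0.67), and DESeq2 called 3 higher, against 1.91% of all genes. The 2 of smallest p were *Tcf21* (1.299 ± 0.206) and *Slc7a10* (2.83 ± 0.59). The smooth muscle list, summed over 9 genes, was at 1709 to 2098 CPM in WT and 835 to 1502 CPM in KO. It had 5 lower and 4 higher estimates (median -0.51). The 2 of smallest p were *Des* at -1.18 ± 0.34 and *Tagln* at -1.06 ± 0.31. The 4 higher were *Lmod1* (0.40 ± 0.41), *Cnn2* (0.26 ± 0.27), *Synpo2* (0.13 ± 0.28) and *Myh11* (0.01 ± 0.72). The scar fibroblast list was at 6143 to 16265 CPM and 4104 to 7681 CPM, with 7 of 9 lower (median -1.27). The 2 of smallest p were *Grem1* (-3.04 ± 0.95) and *Spp1* (-1.38 ± 0.49), and the summed ranges overlapped. Much of the sum was *Spp1* alone, at 4514 to 7057 CPM in WT and 1108 to 3579 CPM in KO. The list shares *Col1a1* with the collagens and *Ltbp2* with the microfibril genes, and the alveolar fibroblast list shares *Npnt* with the latter. Their part in the differences of *Mfap4*, *Fbln2* and the lysyl oxidases was not tested.

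Among the remaining markers, adventitial fibroblast genes summed to 1236 to 1273 CPM in WT and 1026 to 1398 CPM in KO (5 of 11 higher and 6 lower, median -0.06). The 2 of smallest p were *Dpp4* at 1.53 ± 0.21 and *Clec3b* at 0.87 ± 0.30, while *Scara5* at -0.67 ± 0.54 was lower in all 3 KO libraries than in any WT library and *Dcn* was at -0.64 ± 0.34. Markers of alveolar and ductal myofibroblasts, the elastin-making cells of growing septa, had 3 of 9 higher (median -0.19). They included *Hhip*, a hedgehog-binding protein gene, with means of 14.4 ± 4.5 in WT against 76.7 ± 29.3 CPM in KO (2.42 ± 0.40, DESeq2 adjusted p 5.91e-06, edgeR adjusted p 0.203), and *Mustn1* (-0.89 ± 0.32). Pericyte genes had 1 of 7 higher (median -0.18, *Kcnj8* -0.99 ± 0.23, *Cox4i2* 0.61 ± 0.32). Endothelial genes had 6 of 8 higher (median 0.37, *Kdr* 1.01 ± 0.52, *Gja5* 0.61 ± 0.46). The 2 lower were *Vwf* (-0.38 ± 0.56) and *Sox17* (-0.18 ± 0.45). Groups overlapped for all 8 endothelial genes, and DESeq2 called 0 of them. Mesothelial genes had 3 of 8 higher (median -0.36, *Msln* -1.32 ± 0.72, *Upk1b* -0.67 ± 0.46). Of the higher ones, *Gpm6a* was at 0.95 ± 0.90 and *Upk3b* at 0.79 ± 1.12. Alveolar macrophage genes had 4 of 8 higher (median 0.14). Their 2 of smallest p were *Car4* (1.19 ± 0.27) and *Krt79* (2.21 ± 0.68), and their 2 of highest level were *Chil3* (-1.17 ± 0.54) and *Mrc1* (-0.49 ± 0.28). The *Mrc1* groups were only just apart, with the highest KO library at 267.27 CPM and the lowest WT library at 269.65 CPM. The list summed to 1465 to 2348 CPM in WT and 614 to 1773 CPM in KO.

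The first replicates differed from the others on several of these lists. Pericyte genes summed to 154 and 100.3 CPM in WT and KO replicate 1 and to 579.6 to 734 CPM in the other 4 libraries. Endothelial genes summed to 1036 and 1663 CPM in the first replicates and 3252 to 3574 CPM elsewhere, and mesothelial genes to 1320.1 and 874 CPM against 201 to 357 CPM. Cartilage, which could come with airways, was near absent. Of its 8 genes, the 3 tested summed to 2.00 to 5.95 CPM (*Col2a1* 1.13 ± 1.02, *Hapln1* -0.22 ± 0.52). The sum leaves out the genes under the filter. Of these *Acan* had the most counts in 1 library, 38 in KO replicate 2, and was at 0 in 4 libraries. *Snorc* was at 0 counts in every library. The pericyte and endothelial sums were thus low, and the mesothelial sum high, in the first replicates, where *Eln*, *Fbn1* and *Emilin1* were low. The part of these cells in those low levels was not tested.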

How the data were processed

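Counts per gene and FPKM values were deposited by the authors for 6 libraries of mouse lung, 3 WT and 3 KO. Per the submitters' processing notes, the tools were HISAT2 2.0.4 and StringTie 1.3.4d and the build GRCm38, with no role stated. For the counting settings, strand and annotation release, nothing was given in the sources used here. Labels tie each library to its group and replicate. In the FPKM values the 3 KO columns have names with an unexplained suffix and were used by group, without replicate numbers. The series lists 3 mice per genotype.

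The deposited counts were tested with edgeR 4.0.16 (R 4.3.3): filterByExpr, TMM scaling, a robust quasi-likelihood fit on genotype over 16633 genes, all 10 members among them, and Benjamini-Hochberg adjustment over all genes. SE was derived from the fold change and its F statistic, so it is not independent of p, and 95% intervals use that SE. Alternatives were DESeq2 1.42.0, limma 3.58.1 (voom on counts, and log2(FPKM + 1) or log2(FPKM + 0.1) on the deposited FPKM), other scalings and filters, the replicate number as a block, and libraries left out. Ratios and profiles used log2 CPM with a prior count of 2. The fit was tested on simulated data.

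The members, the 16 gene lists beside them and the rule for named genes were chosen with earlier results of these data known. The rule took all members, then from each list the 2 genes of smallest p and, except for cell type lists, the 2 of highest CPM. *Sftpc*, *Loxl1*, *Mapk7*, the 3 untested proteases, *Snorc*, *Acan*, *Scara5*, *Dcn*, *Chil3* and *Mrc1* were named outside the rule, after their values were seen. So were *Lmod1*, *Cnn2*, *Synpo2*, *Myh11*, *Gpm6a*, *Upk3b*, *Vwf*, *Sox17*, *Itgb6*, *Itga8*, *Prtn3* and *Cela1*. Coordinates are from GENCODE M21 (GRCm38) and promoter windows from RefSeq (GRCm38.p6). With 31052936 or more counts per library, counting error matters mainly for *Fbn2* among the members.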

Additional observations from a re-analysis of the deposited data

How the results depend on the processing

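Limits: 3 mice per group, 1 library each, with the first replicates apart from the rest, and no member past edgeR's adjusted threshold. Genes past an adjusted p under 0.05 numbered 0 in edgeR, 678 with DESeq2, 46 with edgeR without both first replicates, and 0 to 3 when 1 library was left out. Of the members, DESeq2 called 1 (*Fbln2*), edgeR without both first replicates called 1 (*Fbln1*), and leaving out 1 library called 0 in every case. Over 17 alternatives the estimates of *Fbln2* ran from -3.35 to -2.13 and those of *Mfap4* from 0.92 to 1.47, and 7 members, these included, kept their sign. *Mfap2*, *Mfap5* and *Emilin1* did not: leaving out 1 library gave -0.19 to 0.15, -0.12 to 0.39 and -0.71 to 0.08, and *Mfap2* was at -0.05 without both first replicates. Members with a lower estimate numbered 5, and 4 to 7 with 1 library left out. The differences of the log2 ratios ranged, with 1 library left out, from 3.18 to 3.83 (*Fbln1* to *Fbln2*), 2.36 to 3.96 (*Fbln5* to *Fbln2*), -0.01 to 0.74 (*Eln* to *Col1a1*), -0.45 to -0.08 (*Eln* to *Fbn1*), -0.65 to 0.60 (*Fbn2* to *Fbn1*) and -0.21 to 0.38 (*Mfap5* to *Mfap2*).

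Among other named genes near 0, *Ltbp2* turned to -0.16 with limma-voom and with the replicate block, to -0.09 or -0.10 on FPKM, and ran from -0.78 to 0.54 with 1 library left out. *Ctss* was at -0.04 with limma-voom, -0.03 with the block, -0.36 without both first replicates, and -0.20 to 0.29 with 1 library left out. *Itgb5* was at 0.00068 with limma-voom, 0.0033 with the block, 0.03 with total counts and 0.04 on FPKM, and ran from -0.38 to 0.20 with 1 library left out. *Timp3* ran from -0.18 to 0.10 and *Hapln1* from -0.65 to 0.16. The causes were not tested.

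Whether the replicate numbers pair the samples could not be settled with 3 libraries per group. Deviations from the group means correlated between WT and KO at 0.35, 0.35 and -0.10 for replicates 1, 2 and 3. Between unlike replicate numbers they ran from -0.51 to 0.47. With the replicate block edgeR called 0 genes and 0 members, with *Fbln2* at -2.76 (adjusted p 0.128) and *Mfap4* at 1.24 (adjusted p 0.149). At an unadjusted p under 0.05, total-count scaling gave 1158 genes higher and 781 lower, against 989 and 979 with TMM. The block gave 1472 higher and 1915 lower, with 7 of the 10 members among them (3 higher, 4 lower), against 2 members without the block. Leaving out both first replicates gave 2568 and 2461, also with 7 members (3 higher, 4 lower).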
